A study of Drosophila melanogaster with 6 samples.

Results

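The voltage-gated and calcium-activated potassium channels of Drosophila melanogaster are encoded here by 10 genes chosen by name out of 17807 annotated genes, namely Sh, Shab, Shaw, Shawl, Shal, eag, sei, Elk, slo and KCNQ. Peaks of methylated DNA were collected in each gene's annotated span (dm6, RefSeq) and in 1 kb on either side of it. The assay was MeDIP-seq: sonicated DNA was immunoprecipitated with a kit directed at 5-methylcytosine and sequenced, as was a portion kept back as input. The lead group (treatment label F3-800um, 3 libraries) was set against the control group (label F3-0um, 3 libraries). The comparison addresses whether exposure to lead changed where methylated DNA was recovered. All 6 libraries came from adult heads of flies labelled WT. The labels do not say what F3 stands for, how lead was given, which flies were exposed or whether the replicates came from separate cultures. The p-values below therefore reflect only how these 6 samples scatter, and that scatter may be technical.

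A voltage-gated potassium channel opens when the membrane is depolarised and lets potassium leave the cell, which brings a neuron back to rest and sets its firing rate. Sh (Shaker, the Kv1 channel) and Shal (Kv4) carry fast inactivating currents, Shab (Kv2) and Shaw (Kv3) carry delayed or non-inactivating currents, and Shawl is a relative of Shaw. The eag, sei and Elk genes encode the ether-a-go-go family, of which sei (seizure) is the fly counterpart of ERG. The slo gene (slowpoke) encodes the large-conductance channel opened by calcium and voltage, and KCNQ encodes the Kv7 channel. DNA of adult flies is known to hold very little 5-methylcytosine.

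The deposited peak lists held 3522, 1379 and 2536 peaks in lead replicates 1, 2 and 3, against 1746, 2414 and 2157 in control replicates 1, 2 and 3. The number of reads behind each list is unknown here, so a gene without a peak is not shown to lack methylation. A peak by itself does not show methylation either, since sequence repeats were not examined. Lead replicate 1 stood apart in having the most peaks and the highest share of them on X, 32.1%, where the other 5 libraries lay between 21.6% and 24.5%. Sh and eag lie on X, and the main counts and densities are also given without that library or with the autosomal genes alone.

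The channel genes held 37, 14 and 22 peaks in lead replicates 1, 2 and 3, against 15, 21 and 24 peaks in control replicates 1, 2 and 3. Both the highest and the lowest count were in lead libraries, so the groups overlapped. Lead libraries averaged 24.3 ± 11.7 peaks and control libraries 20 ± 4.58 (SD, n = 3 each), and the difference of 4.33 peaks did not exceed the spread among lead libraries (exact permutation of 20 label assignments, two-sided, p = 0.8; the smallest p this design allows is 0.1). Without lead replicate 1 the difference turned to -2 peaks. As a share of each library's own peaks, the channel genes took 1.05%, 1.02% and 0.868% in lead libraries, against 0.859%, 0.870% and 1.11% in control libraries (difference 0.0305 points, exact permutation p = 0.9). In lead libraries these peaks covered 8.65 ± 4.59 kb, against 6.58 ± 1.33 kb in the control libraries (SD, n = 3 each; exact permutation p = 0.7). Their median width was 281, 299 and 304 bp in lead libraries, against 331, 315 and 260 bp in control libraries (exact permutation p = 0.8). With the full lists, the groups overlapped in each of these quantities. When each list was cut to its 1379 highest-scoring peaks, the groups still overlapped in channel-gene peaks, with 15, 14 and 13 in lead libraries, against 11, 11 and 13 in control libraries. They did not overlap in the length covered, which was then 5.55, 4.76 and 4.66 kb in lead libraries, against 3.44, 3.77 and 4.05 kb in control libraries (difference 1.24 kb, exact permutation p = 0.1, the smallest possible). That cut left the list of lead replicate 2 whole, and the length covered in other genes was not taken at it. With control replicate 3 left out of the full lists, the groups also separated in median width, with narrower peaks in lead libraries (difference -28.3 bp, exact permutation p = 0.1). Neither of these p-values was adjusted for the number of settings tried.

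A peak was found in at least 1 library in 7 of the 10 genes, and in all 6 libraries in 5 of them, Sh, Shab, Shaw, eag and slo. Over all genes, 12.2% had a peak in at least 1 library and 3.69% in all 6. The channel genes are long, with a median span of 47.8 kb against 1.70 kb over all genes, and long genes offer more room for peaks. Among the 3268 genes at least as long as the shortest of them, sei, 40.4% had a peak in at least 1 library and 13.9% in all 6. Among the 237 genes of 40 to 60 kb, which include Shawl, eag, Elk, slo and KCNQ, these shares were 73.0% and 26.2%, where the channel genes had 70% and 50%. Only 5 of the 10 genes fall in that class, and neither difference was tested.

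The number of channel genes with a peak was 7, 6 and 6 in lead replicates 1, 2 and 3, against 5, 6 and 6 in control replicates 1, 2 and 3 (exact permutation p = 0.6). The groups differed by Shal, which had no peak in control replicate 1, and by KCNQ, which had a peak in lead replicate 1 alone. No channel gene was marked in every lead library and in no control library, and none showed the reverse. Over all genes, those patterns were met by 0.0618% and 0.00562%. Likewise 0 of the 10 genes had peak counts that did not overlap between the groups, against 0.0899% of all genes with higher and 0.00562% with lower counts in lead libraries (0.736% and 0.046% of the 2173 genes with any peak). Of the 17807 genes, 17 reached the smallest exact permutation p of 0.1, none of them a channel gene, and after Benjamini-Hochberg adjustment over all genes the smallest p was 1.

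**Figure D1:**
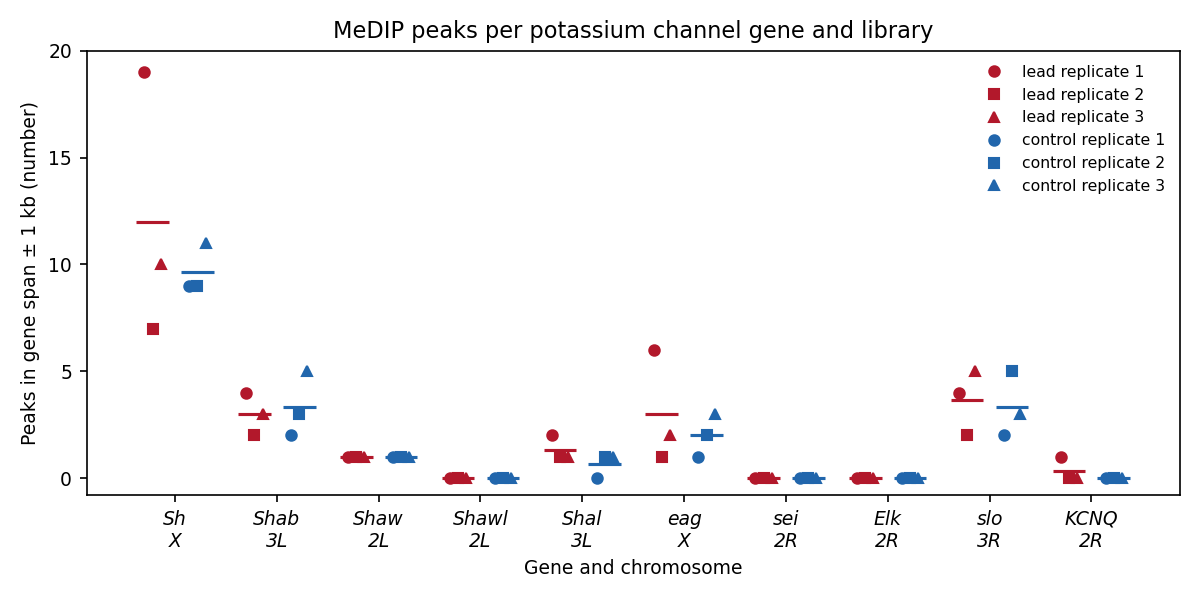
Number of peaks in the span ± 1 kb of each potassium channel gene (vertical axis) for lead (red) and control (blue) libraries, with marker shape giving the replicate and short lines the group means. Sh had the most peaks in every library, 7 to 19, and Shawl, sei and Elk had none.

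Sh, the Kv1 gene, spans 138941 bp on X at 17924307 to 18063247 and held almost as many peaks as all the other genes together, 65 over the 6 libraries. It had 19, 7 and 10 peaks in lead replicates 1, 2 and 3, against 9, 9 and 11 in control replicates 1, 2 and 3. Lead replicate 1 was high and lead replicate 2 low, with the control libraries between them (12.0 ± 6.24 in lead, 9.67 ± 1.15 in control, SD, n = 3 each; exact permutation p = 0.8). Without lead replicate 1 the means were 8.5 in lead and 9.67 in control libraries (difference -1.17, exact permutation p = 0.6). With the 1379 highest-scoring peaks of each list, Sh had 7, 7 and 6 peaks in lead libraries, against 7, 6 and 4 in control libraries. Among peaks with a score of at least 47, the median score of all lists pooled, lead replicate 1 remained the highest, with 12, 2 and 5 peaks in lead libraries, against 4, 2 and 4 in control libraries. That cut takes scores as comparable between lists, which is not known. Peaks covered 5.76%, 1.75% and 2.52% of the Sh window in lead libraries, against 2.23%, 2.11% and 2.71% in control libraries.

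Overlapping peaks of the 6 libraries merged into 21 regions in Sh, of which 3 had a peak in every library. The first began 4 bp before the lower-coordinate end of the annotated span, at 17924303 to 17924908. Its peaks were 606, 491 and 549 bp wide in lead replicates 1, 2 and 3, against 515, 581 and 524 bp in control replicates 1, 2 and 3. Each list ranks peaks by the authors' score, whose meaning is not stated, and a percentile of 100 here marks the highest score of a list. By that measure the region stood at the 97.5, 46.5 and 89.5 percentile in lead libraries, against 88.7, 88.5 and 78.6 in control libraries. Lead replicate 2 was the low one, and lead replicate 1 the high one.

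The second shared region of Sh lay 22.8 kb into the span at 17947071 to 17947449. Its peaks were 321, 277 and 335 bp wide and stood at the 88.4, 40.2 and 75.4 percentile in lead libraries, against widths of 288, 320 and 259 bp and the 73.7, 60.8 and 63.1 percentile in control libraries. The third, 74.5 kb into the span at 17998778 to 17999181, was the most evenly ranked of the 3. It stood at the 94.3, 85.8 and 94.7 percentile in lead libraries and at 85.0, 83.3 and 93.6 in control libraries, with peaks 321 to 396 bp wide. No other annotated gene overlapped any of the 21 regions.

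Peaks crowded at the lower-coordinate end of Sh. Of 5 equal parts of the span, each 27.8 kb long, part 1 at that end held 12, 4 and 8 peaks in lead replicates 1, 2 and 3, against 7, 7 and 10 peaks in control replicates 1, 2 and 3. Part 4 held none in any library. Of the 21 regions, 14 lay in part 1, 2 in part 2, 2 in part 3 and 3 in part 5. The strand of the gene is not given in the annotation table used, so this end is not named as the start or the end of the transcript.

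Besides the 2 shared ones, part 1 of Sh held 12 regions. That at 17925709 to 17926159 had peaks of 299 to 336 bp in lead replicates 1 and 3 and in all control libraries, ranked 1109 to 1684 in their lists. At 17928901 to 17929359, peaks of 315 to 434 bp were found in lead replicates 1 and 2 and in all control libraries (ranks 1122 to 2234). The widest region, 17943755 to 17944796, held a peak of 1042 bp in lead replicate 1 and of 535 bp in lead replicate 2, against 390, 257 and 778 bp in control replicates 1, 2 and 3. Each of these 3 regions thus lacked a peak in 1 lead library.

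Regions with fewer peaks were also shared between lead and control libraries. The region at 17928216 to 17928513 had peaks in lead replicates 1 and 3 and control replicates 1 and 3 (234 to 280 bp, ranks 883 to 1878), and that at 17941186 to 17941602 in lead replicates 1 and 3 and control replicates 1 and 2 (331 to 385 bp, ranks 1517 to 2583). At 17932052 to 17932681 peaks of 630 and 517 bp were found in lead replicates 1 and 3 and one of 251 bp in control replicate 3. Lead replicate 1 shared the region at 17940483 to 17940733 with control replicate 2, and those at 17946025 to 17946591 and 17949085 to 17949841 with control replicate 3. At the last of these the peaks were near the bottom of their lists (ranks 3257 of 3522 in lead replicate 1 and 2120 of 2157 in control replicate 3).

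The remaining 3 regions of part 1 were found in 1 group. The region at 17950760 to 17951002 had peaks of 225 and 221 bp in lead replicates 1 and 3 (ranks 2224 and 1239). A single peak lay at 17925124 to 17925424 in lead replicate 3 (rank 2234) and another at 17938786 to 17939001 in control replicate 3 (rank 1484).

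Farther along Sh, peaks were sparser. The region 41.8 kb into the span, at 17966119 to 17966436, had peaks of 278, 228 and 307 bp at the 85.5, 32.0 and 63.2 percentile in lead replicates 1, 2 and 3, against 1 peak of 259 bp at the 49.7 percentile in control replicate 2. Of the 21 it was the 1 region that all lead but not all control libraries had. The region at 17995003 to 17995814 had a peak of 812 bp in lead replicate 1 and of 273 bp in lead replicate 2. That at 18040900 to 18041149 had peaks of 249 bp in lead replicate 1 and 242 bp in control replicate 1. The regions at 17963326 to 17963560, 18035785 to 18035998 and 18052048 to 18052269 held 1 peak each, all in lead replicate 1 (235, 214 and 222 bp, ranks 2661, 1616 and 2583). In all, 6 of the 21 regions of Sh were occupied in lead libraries alone (28.6%; 30.7% of all regions of the genome) and 1 in control libraries alone (4.76%; 11.3% of all). Without lead replicate 1 the order turned, to 3 of 18 regions in lead libraries alone (16.7%; 14.4% of all) and 5 in control libraries alone (27.8%; 27.5% of all).

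**Figure D2:**
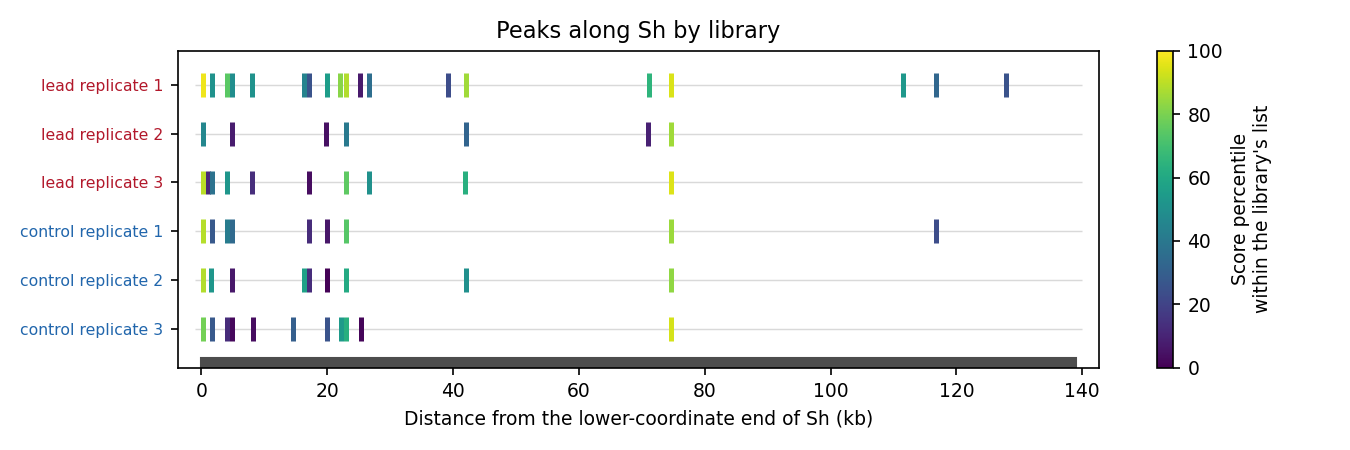
Peaks along Sh in each library (rows), with distance from the lower-coordinate end of the gene in kb on the horizontal axis and the gene span as a grey bar. Ticks mark peak midpoints and not widths, and their colour gives the score percentile within the library's list. The 27.8 kb nearest that end held 4 to 12 peaks per library, and the region 74.5 kb into the span stood at or above the 83.3 percentile in every library.

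Shab, the Kv2 gene, spans 64563 bp on 3L at 2895017 to 2959579. It had 4, 2 and 3 peaks in lead replicates 1, 2 and 3, against 2, 3 and 5 in control replicates 1, 2 and 3 (exact permutation p = 1). Its 6 regions all lay in the higher-coordinate part of the gene, from 41.9 kb into the span onward. Neighbouring regions at 2936870 to 2937440 and 2938240 to 2938712 had a peak in every library. The first stood at the 60.2, 36.8 and 25.7 percentile in lead libraries, against 10.3, 38.5 and 52.6 in control libraries. The other stood at the 55.1, 27.5 and 64.8 percentile in lead libraries and at 23.1, 30.1 and 55.7 in control libraries. These peaks, 218 to 545 bp wide, were thus recovered each time without ranking high.

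Closer to the end of the Shab span, the region at 2959001 to 2959267, 312 bp short of it, had a peak of 209 bp in lead replicate 1, against peaks of 267 and 248 bp in control replicates 2 and 3. That at 2956536 to 2956760 had a peak in lead replicate 3 and in control replicate 3 (219 and 225 bp, ranks 2114 and 1727). Single peaks lay at 2939926 to 2940134 in lead replicate 1 (rank 1918) and at 2944215 to 2944439 in control replicate 3 (rank 2130 of 2157). The nearest region outside the Shab window was 22605 bp away in Tet, the fly relative of the enzymes that oxidise methylated bases, where 3 lead libraries and 1 control library had a peak.

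Shaw, the Kv3 gene, was the most uniform. It spans 10961 bp on 2L at 3718185 to 3729145 and had 1 peak in each of the 6 libraries, all at 3726394 to 3726696, which is 2449 bp from the higher-coordinate end. The peaks were 281, 235 and 284 bp wide and stood at the 87.5, 59.2 and 80.4 percentile in lead libraries, against 248, 264 and 285 bp and the 64.4, 83.3 and 79.3 percentile in control libraries. Its relative Shawl, which spans 44848 bp on the same arm at 9370309 to 9415156, had no peak in any library. The nearest peak to Shawl lay 55.1 to 56.8 kb outside the gene in every library.

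Shal, the Kv4 gene, spans 17718 bp on 3L at 19566851 to 19584568. It had 2, 1 and 1 peaks in lead replicates 1, 2 and 3, against 0, 1 and 1 in control replicates 1, 2 and 3 (exact permutation p = 0.6). The region at 19571324 to 19571717 accounted for all but 1 of them. Its peaks were 245, 234 and 256 bp wide at the 82.8, 70.6 and 71.0 percentile in lead libraries, against 394 and 248 bp at the 62.3 and 76.3 percentile in control replicates 2 and 3. Control replicate 1, with 1746 peaks in its list, had none there, while lead replicate 2, with 1379, had a peak. Any part played by list length was not tested. The additional peak of lead replicate 1 lay 246 bp from the end of the span at 19583952 to 19584322 and ranked 2745 of 3522.

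Within the ether-a-go-go family, eag alone carried peaks. It spans 54513 bp on X at 14955477 to 15009989 and had 6, 1 and 2 peaks in lead replicates 1, 2 and 3, against 1, 2 and 3 in control replicates 1, 2 and 3 (exact permutation p = 0.9). The region at 15000800 to 15001093 had a peak in every library, at the 95.6, 85.3 and 91.9 percentile in lead libraries, against 77.7, 83.9 and 91.4 in control libraries. Its peaks were 294, 255 and 278 bp wide in lead and 237, 249 and 247 bp in control libraries. The 6 peaks began within 14 bp of each other, where the median spread of peak starts over the 890 regions shared by all libraries was 70 bp.

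The second eag region by number of libraries, at 15003699 to 15003983, had peaks of 285 and 240 bp in lead replicates 1 and 3, against 242 and 253 bp in control replicates 2 and 3. Lead replicate 1 and control replicate 3 shared the region at 14993024 to 14993316 (272 and 261 bp, ranks 915 and 899). The other 3 regions, at 14971130 to 14971336, 14976015 to 14976261 and 15001826 to 15002094, were found in lead replicate 1 alone (ranks 1829, 989 and 1829). Without that library eag had no region confined to 1 group except the 1 peak of control replicate 3 at 14993024.

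The sei gene (5625 bp on 2R at 24047411 to 24053035) and Elk (52757 bp on 2R at 17873939 to 17926695) had no peak in any library. The nearest region to Elk lay 2395 bp outside the span at 17929090 to 17929326, in lead replicate 1 alone, so that a wider window would have assigned Elk a peak in that library. The nearest peaks to sei lay 28.0 kb away in 5 libraries and 161 kb away in lead replicate 2. Elk falls in the class of 40 to 60 kb, in which 73.0% of genes had a peak, and Shawl does too. The number of reads over these genes is unknown here.

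The calcium-activated slo gene spans 49105 bp on 3R at 24662491 to 24711595 and had the highest-ranked channel-gene peak in every library but lead replicate 1, where the Sh peak at 17924303 ranked 89 and that of slo 96. It had 4, 2 and 5 peaks in lead replicates 1, 2 and 3, against 2, 5 and 3 in control replicates 1, 2 and 3 (exact permutation p = 1). The region at 24699292 to 24699961, 36.8 kb into the span, ranked 96 of 3522, 54 of 1379 and 76 of 2536 in lead replicates 1, 2 and 3. In control replicates 1, 2 and 3 it ranked 102 of 1746, 85 of 2414 and 74 of 2157. It was thus at or above the 94.1 percentile of each list. Its peaks were 491, 400 and 651 bp wide in lead libraries, against 331, 542 and 527 bp in control libraries.

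Another slo region, 24682443 to 24683212, was also found in every library but ranked low, at the 46.9, 27.5 and 23.0 percentile in lead libraries, against 14.4, 41.6 and 16.1 in control libraries. Its peaks were 770, 477 and 365 bp wide in lead and 365, 332 and 417 bp in control libraries. The region at 24686659 to 24687194 had peaks in lead replicates 1 and 3 and control replicates 2 and 3 (394 to 472 bp, ranks 1120 to 3137). In lead libraries alone were the region at 24710208 to 24710489, 1106 bp from the end of the span, with peaks of 226 and 242 bp in replicates 1 and 3, and a single peak at 24693957 to 24694204 in replicate 3 (rank 2168). In control libraries alone were single peaks of replicate 2 at 24687883 to 24688089 and 24692946 to 24693188 (207 and 243 bp, both at rank 1588). With equal numbers of peaks slo had 1, 2 and 3 peaks in lead libraries and 1 in each control library. Shab then leaned the other way, with 0, 2 and 1 in lead libraries, against 1, 1 and 3 in control libraries. The eag counts were 4, 1 and 1 against 1, 1 and 3, and those of Shal 1, 1 and 1 against 0, 1 and 1. Shaw kept 1 peak in every library, and KCNQ its 1 peak in lead replicate 1.

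KCNQ, the Kv7 gene, spans 46498 bp on 2R at 10145897 to 10192394 and had 1 peak in 1 library. It was found in lead replicate 1 at 10156273 to 10156503, 231 bp wide, at rank 1113 of 3522. The position is also within mlt, an annotated gene that overlaps KCNQ, so the peak cannot be assigned to one of them alone. The nearest region outside KCNQ, 18351 bp away where gem and CG46319 are annotated, had a peak in all 6 libraries.

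**Figure D3:**
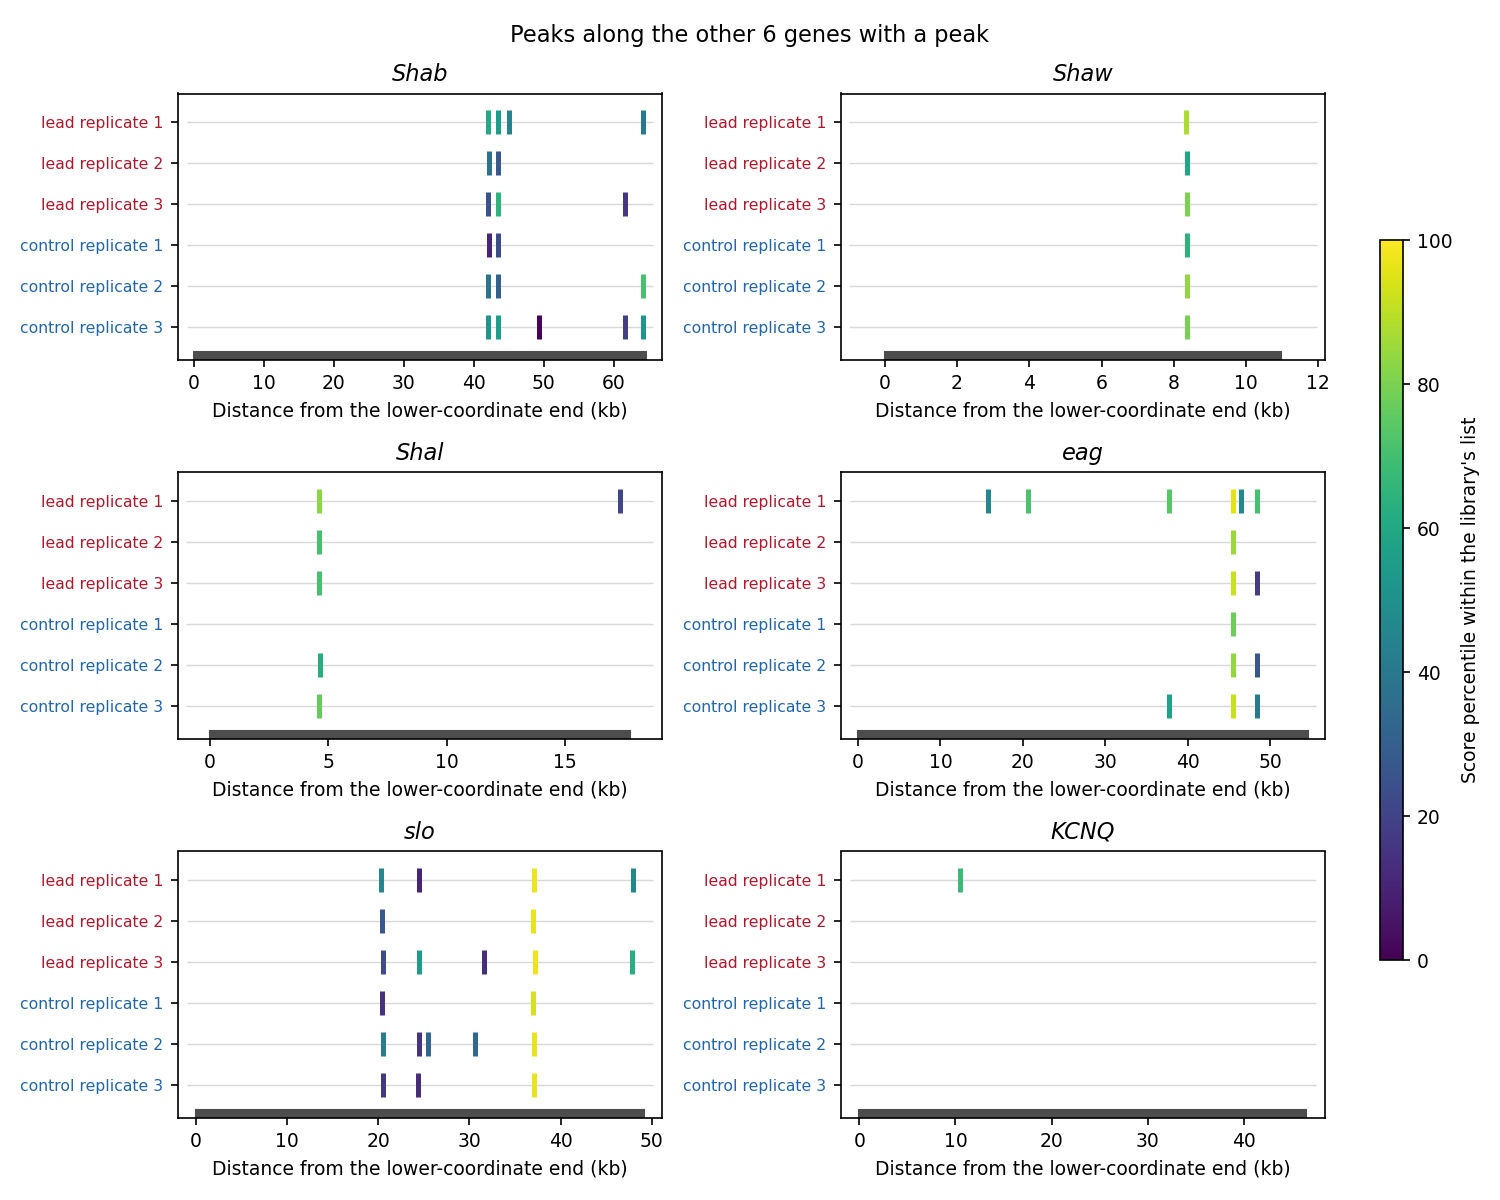
Peaks along the other 6 genes with a peak, drawn as for Sh: rows are libraries, the horizontal axis is distance from the lower-coordinate end of each gene in kb, ticks are peak midpoints and colour is the score percentile within the list. Shaw had the same single region in every library, the slo region 36.8 kb into the span ranked at or above the 94.1 percentile throughout, and the KCNQ peak was in lead replicate 1 alone.

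Together the channel genes held 44 regions. None was occupied throughout the lead libraries and absent from every control library, and none the other way round, against 0.441% and 0.154% of all 4538 regions. Lead and control libraries both had a peak at 26 of the 44 (59.1%; 57.9% of all regions). Peaks were in lead libraries alone at 14 regions (31.8%; 30.7% of all) and in control libraries alone at 4 (9.09%; 11.3% of all). A single library held 15 regions (34.1%; 35.5% of all), and 9 of these were in lead replicate 1 (20.5%; 19.1% of all). Without lead replicate 1 the order of the groups turned, to 5 regions in lead libraries alone (14.3%; 14.4% of all) and 10 in control libraries alone (28.6%; 27.5% of all). The autosomal genes had 17 regions, 5 in lead libraries alone (29.4%, beside 30.7% of all) and 3 in control libraries alone (17.6%, beside 11.3%). Without lead replicate 1 these were 2 (14.3%, beside 14.4% of all) and 4 (28.6%, beside 27.5%) of 14 regions. The shares of all regions include those on X, and no share over autosomal regions alone is given.

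All of the peaks of lead replicate 2 and of control replicate 1 lay in regions that at least 1 other library also had. Lead replicate 1 had 9 regions of its own, lead replicate 3 had 2, and control replicates 2 and 3 had 2 each. Without lead replicates 1, 2 and 3 in turn, the channel genes had 35, 44 and 42 regions (44 with all libraries). The genome then had 3686, 4504 and 4300 (4538 with all libraries). Without control replicates 1, 2 and 3 in turn, the channel genes had 44, 42 and 42 regions and the genome 4456, 4307 and 4416. On X the channel genes had 25, 8 and 12 peaks in lead replicates 1, 2 and 3, against 10, 11 and 14 in control replicates 1, 2 and 3. The autosomal genes had 12, 6 and 10 in lead libraries, against 5, 10 and 10 in control libraries (exact permutation p = 0.7). Of the 9 regions that were in lead replicate 1 alone, 6 were on X, where 27 of all 44 channel-gene regions lay.

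The 9 regions with a peak in all 6 libraries (20.5% of the 44; 19.6% of all regions) allowed scores to be placed on equal terms, since each list ranks the same 890 shared regions. The slo region 36.8 kb into the span took places 91, 51 and 68 in lead replicates 1, 2 and 3, against 100, 74.5 and 71.5 in control replicates 1, 2 and 3. The other slo region lay near the bottom, at places 794.5, 751 and 855.5 in lead and 853.5, 744.5 and 866.5 in control libraries. The eag region took places 145, 192 and 187.5 in lead libraries, against 349.5, 331 and 179.5 in control libraries. There the place in control replicate 3 lay among those of the lead libraries. Sh at 74.5 kb took places 187, 185.5 and 125.5 in lead libraries, against 246, 340.5 and 136 in control libraries. Sh at 22.8 kb took 338.5, 651 and 491.5, against 399.5, 603 and 581. Shab at 2938240 took 745, 751 and 619.5 in lead libraries, against 816.5, 804 and 654.5 in control libraries. Shab at 2936870 took 705, 678.5 and 848.5, against 869.5, 764 and 679.5.

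The region at the lower-coordinate end of Sh varied most among lead libraries, at places 85.5, 597.5 and 241, against 191.5, 247.5 and 400 in control libraries. Shaw took places 361.5, 485.5 and 418 in lead libraries, against 496, 340.5 and 389 in control libraries. At 0 of the 9 regions did the places of lead and control libraries fail to overlap. Over all 890 shared regions, places did not overlap at 5.39% with lead libraries nearer the top and at 7.75% with lead libraries nearer the bottom.

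**Figure D4:**
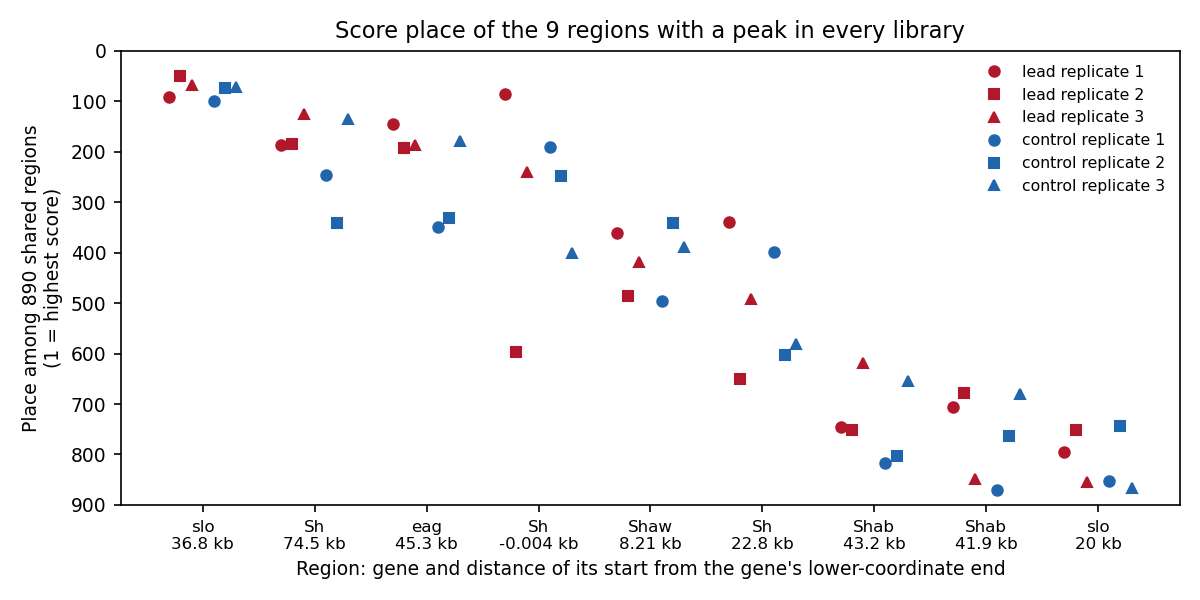
Place of each shared channel-gene region among the 890 regions with a peak in all 6 libraries (vertical axis, 1 at the top being the highest score), for lead (red) and control (blue) libraries, with marker shape giving the replicate. Regions are named by gene and by the distance of their start from the gene's lower-coordinate end. The slo region at 36.8 kb held places 51 to 100 in every library, and lead and control places overlapped at all 9.

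Peak edges were recovered closely. Over the 9 shared regions the median spread between the lowest and highest peak start was 57 bp and that of peak ends 45 bp, where the 890 shared regions had medians of 70 bp for both. The least even were the slo region at 24682443, whose starts spread over 405 bp, and the Shab region at 2936870, whose ends spread over 331 bp.

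Per 100 kb of gene window, the channel genes held 7.32, 2.77 and 4.35 peaks in lead replicates 1, 2 and 3, against 2.97, 4.15 and 4.75 in control replicates 1, 2 and 3. Genes at least as long as sei held 1.17 to 3.20 peaks per 100 kb over the 6 libraries, and genes of 40 to 60 kb held 1.14 to 3.07. The means over libraries were 4.38 for the channel genes and 2.01 and 1.94 for these classes. The channel genes on autosomes averaged 2.87, and the 22 other potassium channel and partner genes described next averaged 4.55, above the channel genes. Without lead replicate 1 the means were 3.80 for the channel genes, 2.66 for those on autosomes, 3.87 for the 22 other genes, and 1.77 and 1.72 for the length classes. Shaw had 7.72 peaks per 100 kb on average, Sh 7.69, slo 6.85, Shal 5.07, Shab 4.76, eag 4.42 and KCNQ 0.344, where long genes with any peak had a median of 2.83. The channel genes on X held 6.75 per 100 kb on average, and X genes over 50 kb held 3.28; without lead replicate 1 these were 5.57 and 2.65. These densities describe the genes and were not tested against other genes, since the genes were named with earlier results of these data known.

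A list of 22 other potassium channel and partner genes was read the same way. Of these, 13 had a peak in at least 1 library (59.1%, beside 12.2% of all genes) and 8 in all 6 (36.4%, beside 3.69%). Among genes at least as long as sei these shares were 40.4% and 13.9%. SK, the small-conductance channel opened by calcium, lies on X and had 15, 2 and 6 peaks in lead replicates 1, 2 and 3, against 4, 6 and 5 in control replicates 1, 2 and 3. Hk, which encodes the beta subunit of Shaker channels, had 6, 1 and 2 in lead libraries and 1, 4 and 3 in control libraries. The qvr gene, which encodes a regulator of Shaker that promotes sleep, had 1 peak in every library. The gene dlg1, whose scaffold protein clusters Shaker at synapses, had 6, 4 and 6 in lead libraries and 6 in each control library.

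Ih, the hyperpolarisation-activated cation channel, had 5, 2 and 4 peaks in lead libraries, against 2, 3 and 3 in control libraries, and SLO2, a relative of slo, had 4, 2 and 3 against 2, 2 and 1. Cngl, a cyclic nucleotide-gated channel subunit on X, was the 1 gene of the 22 whose counts did not overlap, with 5, 4 and 4 peaks in lead and 2, 3 and 3 in control libraries (exact permutation p = 0.1, the smallest possible; adjusted over all 17807 genes 1). That is 4.55% of the list, resting on 1 gene. Counts were likewise higher in lead libraries without overlap at 0.0899% of all genes and 0.736% of genes with any peak. Of the tandem-pore channel genes, CG42340 had 8, 1 and 3 peaks in lead libraries, against 3 in each control library, and CG42594 had 3, 0 and 1 against 2, 0 and 2. CG34396 had a single peak in a lead library, and CG10864 and CG43155 had a single peak in a control library, as did Slob, which encodes a protein that binds slowpoke channels. The inward rectifiers Irk1, Irk2 and Irk3 had none, nor had Ork1, sand, Task6, Task7, galene or CngA.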

How the data were processed

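Per the submitters' processing notes, cutadapt removed adapters and Bowtie2 2.1.0 placed reads on dm6; for the peak caller and its threshold the labels name nothing. Per the peak names in the deposited lists, each library's peaks were called by the authors with that library's input as background, so replicates were not pooled. Each deposited peak carries a width in bp and a whole-number score, which served to order peaks inside its own list. Only the cut at 47, the median score of all lists pooled, was applied alike to every list. Whether scores are comparable between lists is unknown. Repeated rows (452 to 1563 per list) were dropped. Coordinates are 1-based.

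A peak belonged to a gene if it overlapped the RefSeq span (Release 6) or 1 kb on either side by at least 1 bp. Overlapping peaks of all libraries were merged into regions. Strand, exons and sequence were not used here. Group means over libraries were compared by exact permutation of 20 label assignments. The genes, lists and tests were chosen with earlier results of these data known; the rule names all 10 genes and those of the 22 others with a peak. The class of 40 to 60 kb, the 5 parts of Sh, the X genes over 50 kb, and the regions of 1 group and densities without lead replicate 1 were chosen after the data were seen. Alternatives were a score of at least the median of 47, the 1379 highest-scoring peaks per list, other window, overlap and merging rules, autosomal genes alone, leaving out each library and the replicate number as a block. Functions were tested on simulated data. Versions were Python 3.11.15 with scipy 1.17.1, numpy 2.4.6 and pandas 2.3.3, and figures came from matplotlib 3.10.9.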

Additional observations from a re-analysis of the deposited data

How the results depend on the processing

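Of 120 alternative values, 97 kept their direction, or their count within 1.5 times. The unknown read depth of the libraries limits statements on absent peaks, and 3 libraries against 3 cannot reach p under 0.1. Leaving out each library in turn gave differences of -2 to 9.5 in channel-gene peaks, -0.469 to 4.01 kb covered, -0.0135 to 0.113 points in share, -28.3 to 7.17 bp in median width and 0.333 to 0.833 in genes with a peak. The peak, coverage and share differences turned without lead replicate 1 (-2 peaks, -0.469 kb, -0.00586 points), the share also without control replicates 1 (-0.0135) and 2 (-0.00812), and the width without control replicate 1 (7.17 bp). Channel-gene regions in all lead and no control libraries then ranged from 0 to 2, the reverse was 0, and shared regions ranged from 9 to 11. The same counts over all regions were not taken with a library left out, so these ranges have no share to be read beside. Channel-gene regions in lead libraries alone ranged from 5, without lead replicate 1, to 19, against 14 with all libraries. Their share ranged from 14.3% to 45.2%, beside 14.4% to 42.1% of all regions. Those in control libraries alone ranged from 2 to 10, the highest again without lead replicate 1, against 4. Their share ranged from 4.76% to 28.6%, beside 6.48% to 27.5% of all regions. The autosomal genes had 5 and 3 of 17 regions. Genes of the whole annotation with non-overlapping counts ranged from 36 to 150, against 17 with all libraries. The 150 came without lead replicate 2, which had the shortest list, and the next highest was 45, without lead replicate 1. Fewer libraries must separate when 1 is left out, and the reason for the rise was not tested. With equal numbers of peaks the width difference turned to 8.67 bp and the peak difference was 2.33 (exact permutation p = 0.2), and the groups separated in the length covered (difference 1.24 kb, at the smallest p of 0.1). They separated in median width without control replicate 3, with lead libraries narrower (-28.3 bp, exact permutation p = 0.1). Shared regions numbered 5 with the stricter score and 5 with the autosomal genes alone, which leave fewer peaks. The labels do not say that replicate numbers pair the libraries, and deviations of equal-numbered libraries did not go together (correlations over 4538 regions 0.0114, -0.0147 and -0.00577). With the replicate block the differences cannot change (4.33 peaks, 0.667 genes, 2.06 kb, 0.0305 points and -7.33 bp), and the exact sign-flip p was 0.75 to 1, where 0.25 is the smallest.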
